A study of Mus musculus with 8 samples.

Results

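The cytosolic ribosome of mouse liver is described here through the mRNAs of its ribosomal proteins. Members were taken by name, as symbols of the Rpl and Rps series together with Rplp0, Rplp1, Rplp2 and Rpsa, without annotated pseudogenes and without the Rps6 kinases, and with a mean count of at least 10 over all 8 libraries. The rule used no group difference. It left 80 genes of the 22183 in the table, 48 of the large and 32 of the small subunit, from 83 name matches. All 80 passed the low-count filter and were tested among 12722 genes. The 3 matches left out were the paralogs Rpl3l with 2 counts in all libraries together, Rpl39l with 3 and Rpl10l with 0, and the lowest members retained were Rps28, Rpl22l1 and Rps21 with mean counts of 459, 538 and 700.

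The libraries came from livers of C57 mice, taken 24 h after induction of injury. APAP_MSC livers (3 libraries) had received 400 mg/kg acetaminophen (APAP) into the peritoneum and MSCs, an abbreviation that the labels do not expand, by tail vein 4 h later. APAP_PBS livers (3 libraries) had received the same APAP dose and phosphate-buffered saline (PBS). CTRL livers (2 libraries) are labelled control; the protocol text is the same for every sample, so that CTRL is read as without APAP from its group label only, and neither a saline injection of CTRL nor the age of the mice is given in the labels. Acetaminophen overdose kills hepatocytes around the central veins, and the study asked which genes an MSC injection alters in that setting. Whether each library is a mouse of its own is not stated, and p-values therefore measure the spread between these libraries, which may be technical. Library totals ran from 16261200 to 24516500 counts, and albumin, the defining hepatocyte transcript, took 5.59% to 7.50% of them.

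Each cytosolic ribosome holds a single copy of nearly every ribosomal protein, and cells make these proteins in matched amounts. Their mRNAs are known as TOP mRNAs, because they begin with a C followed by a run of pyrimidines. The kinase mTORC1 acts through this run, with the RNA-binding protein LARP1, to set how well the mRNAs are translated and how long they are stored. Translation was not measured here, so the values below are mRNA levels only.

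The promoters were examined for runs of this kind near the annotated start, a sequence feature that the naming rule did not use. RefSeq promoter windows of GRCm38.p6, from 250 bases before to 50 after each annotated start, were found for 60 of the 80 genes, 71 windows in all. Runs of C and T on the sense strand were counted from 10 bases before the annotated start to the end of the window. A run of at least 7 uninterrupted letters stood in 52 of the 71 windows (73.2%), against 32.6% of the 32851 windows of all genes. Such a run is not shown to be the first bases of the mRNA. Its first letter lay at position 29 in Rpl37, and at -10 in the Rps27l window shown, where the run ended before the annotated start. The run is shown in capitals, inside 30 bases, for Rps6, Rpl13a and Rps12, which lay near the upper end of the fold changes reported below, and for Rps27, Rps27l, Rpl35a and Rpl37, the last 3 of which lay at the lower end.
Rps6 (chr4:86857349-86857378, minus strand): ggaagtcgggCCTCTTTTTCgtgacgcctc
Rpl13a (chr7:45128724-45128753, minus strand): tgcgacaagaCCTCCTCCTTTCCCaggcgg
Rps12 (chr10:23787182-23787211, minus strand): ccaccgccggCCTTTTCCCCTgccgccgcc
Rps27 (chr3:90213631-90213660, minus strand): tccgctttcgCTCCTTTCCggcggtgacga
Rps27l (chr9:66946066-66946095, plus strand): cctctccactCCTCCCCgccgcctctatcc
Rpl35a (chr16:33056467-33056496, plus strand): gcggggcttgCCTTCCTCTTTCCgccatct
Rpl37 (chr15:5116631-5116660, plus strand): ggcgggggtgCTTTCTCTTCCggtctcttt

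The runs were 10, 14 and 11 letters long in Rps6, Rpl13a and Rps12, and 9, 7, 13 and 11 in Rps27, Rps27l, Rpl35a and Rpl37. Rplp0 and Rpsa, also near the upper end, had runs of 7. Rps27l and Rpl35a, which have 2 and 3 annotated starts, each had a run of 5 at another start. Other motifs were sought on both strands. Of all 10-letter sequences that equal their own reverse complement, TCTCGCGAGA was found in the most windows of these genes. It stood in 7 of the 71 windows (9.86%), against 0.466% of all windows. Because it was picked from these same windows, its larger share there is a description only. The Rps19 windows that held it overlapped and shared the same site. This sequence belonged to Rpl10a, Rpl12, Rpl26, Rps6, Rps19 and Rps28, and is in capitals in a pair of them.
Rps19 (chr7:24884574-24884603, plus strand): cactccgaaaTCTCGCGAGActcgacgccc
Rpl12 (chr2:32961648-32961677, plus strand): ggccagcggtTCTCGCGAGAgctgagcttt

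CCGGAAG, a core bound by ETS family factors such as GABPA, stood in 36.6% of the members' windows and 8.86% of all windows. The Sp1 box GGGCGG stood in 62% against 35.7%, AAGATGGCG, bound by YY1, in 8.45% against 1.4%, and TATAAA in 9.86% against 13.6%. These are matches of letters, not shown to be sites. The median log2 fold changes of genes with and without the pyrimidine run (48 and 12 genes) were -0.00 and -0.01 in APAP_PBS against CTRL, 0.07 and 0.02 in APAP_MSC against APAP_PBS, and 0.07 and 0.03 in APAP_MSC against CTRL. In the same order of comparisons, the 7 genes with TATAAA had medians of -0.11, 0.05 and -0.06, and the 53 without it 0.01, 0.07 and 0.08. The 6 genes with the palindrome had medians of 0.09, 0.05 and 0.12, and the 54 without it -0.01, 0.07 and 0.06. The 25 genes with CCGGAAG had medians of -0.01, 0.06 and 0.06, and the 35 without it -0.00, 0.07 and 0.07.

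Ribosomal protein mRNA took a larger share of the reads in the APAP livers than in CTRL, but the levels of the median ribosomal protein gene overlapped between the groups once libraries were scaled on the bulk of genes. The 80 members took 1.58%, 1.42% and 1.49% of all counts in APAP_MSC libraries, 1.44%, 1.57% and 1.40% in APAP_PBS libraries, and 1.23% and 1.24% in CTRL libraries. All 6 APAP libraries lay above both CTRL libraries, and the APAP groups overlapped. The 10 most abundant genes of each library took 20.2% to 20.9% of its counts in APAP_MSC, 19.8% to 20.5% in APAP_PBS and 22.9% to 26.2% in CTRL. With those genes set aside the members' share was 1.78% to 1.98%, 1.76% to 1.98%, and 1.61% to 1.67%, still with no overlap between the APAP and CTRL libraries.

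TMM scaling, which sets libraries equal over the bulk of genes, is used for every level in CPM, counts scaled to a common library size, and fold change below unless another is named. On that scale the median member stood at 164, 157 and 157 CPM in APAP_MSC, 148, 164 and 149 CPM in APAP_PBS, and 159 and 144 CPM in CTRL. The groups overlapped, with means of 159 ± 4.04, 154 ± 8.96 (SD, n = 3 each) and 152 ± 10.6 CPM (SD, n = 2). Scaling by library size alone gave a median log2 fold change of all tested genes against CTRL of 0.27 for APAP_PBS and 0.20 for APAP_MSC, where TMM gave 0.03 and 0.01. The members' median moved with it, and relative to all genes it was -0.03 and 0.05 under either scaling. In bulk tissue, fewer cells of a type and less RNA per cell cannot be told apart.

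**Figure D1:**
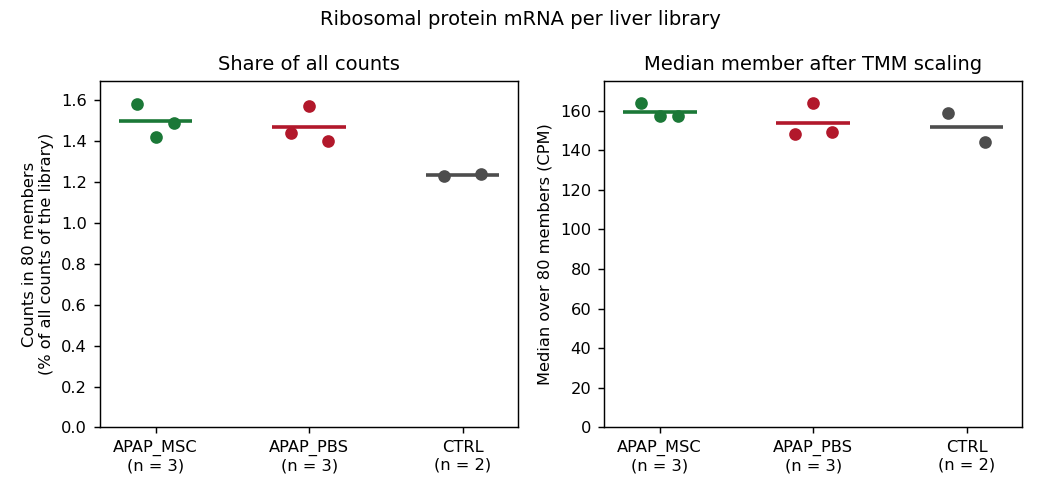
Ribosomal protein mRNA in each library, by group from APAP_MSC through APAP_PBS to CTRL. Points are libraries and lines are group means; the left panel gives the members' share of all counts (%), where the APAP libraries (1.40% to 1.58%) lie above CTRL (1.23% and 1.24%), and the right panel the median member in CPM after TMM scaling, where the groups overlap between 144 and 164 CPM.

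Injury with PBS was set against CTRL to ask what APAP did to these mRNAs by 24 h. None of the 80 genes passed at an adjusted p of 0.05 (edgeR quasi-likelihood test, Benjamini-Hochberg over all tested genes) in either direction, while 10.3% of all tested genes did, 4.29% higher and 5.97% lower. At an unadjusted p under 0.05 there were 4 members, all lower, where 26.8% of all tested genes reached it. DESeq2 on the same counts called 2 lower, Rpl35a and Rpl37, and none higher, where it called 7.77% of all fitted genes lower and 5.81% higher. Limma on log2(FPKM + 1) called 2 higher, Rpl34 and Rplp0, and none lower, where it called 9.31% of all genes higher and 2.37% lower. The members' log2 fold changes ran from -0.37 to 0.20 with a median of -0.00, beside 0.03 for all tested genes, and 39 of the 80 were above 0 (all tested genes 53.7%), but 75 under library-size scaling. That scaling called 6 members higher, among them Rplp0, Rpl34 and Rps6, where it called 12.7% of all tested genes higher and 2.92% lower. In CPM, 8 members had all APAP_PBS libraries above both CTRL libraries and 13 had all below, where 25.0% of all tested genes lay above and 22.6% below.

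The 4 members with the smallest p in that comparison were all lower in APAP_PBS. Rpl35a, a large-subunit protein mutated in some families with Diamond-Blackfan anaemia in humans, was at 92.8, 94.1 and 88.9 CPM in APAP_PBS, against 129.7 and 107 CPM in CTRL. Rpl37, a large-subunit protein, was at 62.1, 60.5 and 58.4 CPM in APAP_PBS, against 80.9 and 70.6 CPM in CTRL. Every APAP_PBS library lay below every CTRL library for these genes, and CTRL replicate 1 was the highest library for each. Their log2 fold changes were -0.36 ± 0.11 (SE, adjusted p = 0.0628) and -0.33 ± 0.11 (adjusted p = 0.0765). Rps29, a small-subunit protein, was at 41.3, 42.7 and 39.9 CPM in APAP_PBS, against 53.8 and 48.4 CPM in CTRL, and Rps27l, described with its partner below, had a log2 fold change of -0.37 ± 0.13. Neither passed, with adjusted p of 0.0845 and 0.0883. Without CTRL replicate 1 the log2 fold changes of Rpl35a, Rpl37, Rps29 and Rps27l against CTRL were -0.22, -0.22, -0.22 and -0.23, and under library-size scaling they were -0.12, -0.08, -0.06 and -0.12.

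The MSC injection was then set against PBS within APAP livers. None of the 80 genes passed in either direction by edgeR, DESeq2 or limma (of all fitted genes DESeq2 called 0.134% higher and 0.189% lower), and none had an unadjusted p under 0.05 in any of them, where 6.62% of all tested genes did in edgeR. Of all tested genes 0% were called higher and 0.00786% lower. The members' log2 fold changes were small and mostly above 0, from -0.09 to 0.19 with a median of 0.06, beside -0.01 for all tested genes. They were above 0 in 69 of 80 members under TMM, beside 48.7% of all tested genes, but in 50 of 80 under library-size scaling, with a median of 0.01 there. In CPM, 21 members (26.2%) had every APAP_MSC library above every APAP_PBS library and 0 had every one below, where 6.81% of all tested genes lay above and 7.04% below. Among other genes of the members' expression range, 11.0% lay above, and among those that also shared their range of coding length, 13.1%. The median log2 fold changes of these matched sets were 0.04 and 0.05, close to the members' 0.06. Above 0 were 60.2% and 64.3% of their genes, beside 86.2% of the members.

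The genes with the smallest p against PBS were Rps21, Rps12 and Rpsa. Rps12 was at 158, 156 and 151 CPM in APAP_MSC, against 139, 145 and 133 CPM in APAP_PBS. Rps21 was at 38.1, 36.6 and 35.5 CPM in APAP_MSC, against 31.9, 33.9 and 33.5 CPM in APAP_PBS. Both are small-subunit proteins, and for both the groups did not overlap. The log2 fold changes were 0.16 ± 0.10 and 0.15 ± 0.09 (SE, adjusted p = 0.806 for each). The 95% interval of every member's log2 fold change in this comparison lay inside a 1.5-fold change in either direction, from a lowest bound of -0.34 for Rps28 to a highest of 0.56 for Rpl22l1.

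APAP_MSC livers were also set against CTRL. Again none of the 80 genes passed in either direction, where 5.84% of all tested genes did, 2.52% higher and 3.32% lower. Unadjusted p was under 0.05 for 12 members, 8 higher and 4 lower, where 21.7% of all tested genes reached it. DESeq2 called Rplp0 higher and Rps27l and Rpl37 lower, where it called 4.08% of all fitted genes higher and 5.49% lower. Limma on log2(FPKM + 1) called Rps12 and Rplp0 higher, where it called 3.58% of all genes higher and 1.41% lower. Log2 fold changes ran from -0.41 to 0.33 with a median of 0.06, beside 0.01 for all tested genes, and the median was 0.03 for the large and 0.11 for the small subunit. Above 0 were 55 of 80 members under TMM (all tested genes 51.2%) and 75 under library-size scaling, which called 8 members higher, among them Rplp0, Rpl13a, Rps6, Rps12 and Rpsa, and 0 lower, where it called 5.93% of all tested genes higher and 1.86% lower. Without CTRL replicate 1 the median over all members was 0.14, and without CTRL replicate 2 it was 0.01. In CPM, 27 members (33.8%) had every APAP_MSC library above both CTRL libraries and 6 had every one below, where 17.8% of all tested genes lay above and 17.7% below. Rpl37, Rps27l and Rpl35a had the smallest p, with log2 fold changes of -0.35 ± 0.11, -0.41 ± 0.13 and -0.34 ± 0.11 (SE, edgeR adjusted p = 0.0768, 0.0813 and 0.0982). Without CTRL replicate 1 these fold changes were -0.24, -0.26 and -0.19. The comparisons against CTRL share their CTRL libraries, and the 4 members with the lowest values were Rps27l, Rpl37, Rpl35a and Rps29 in each.

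**Figure D2:**
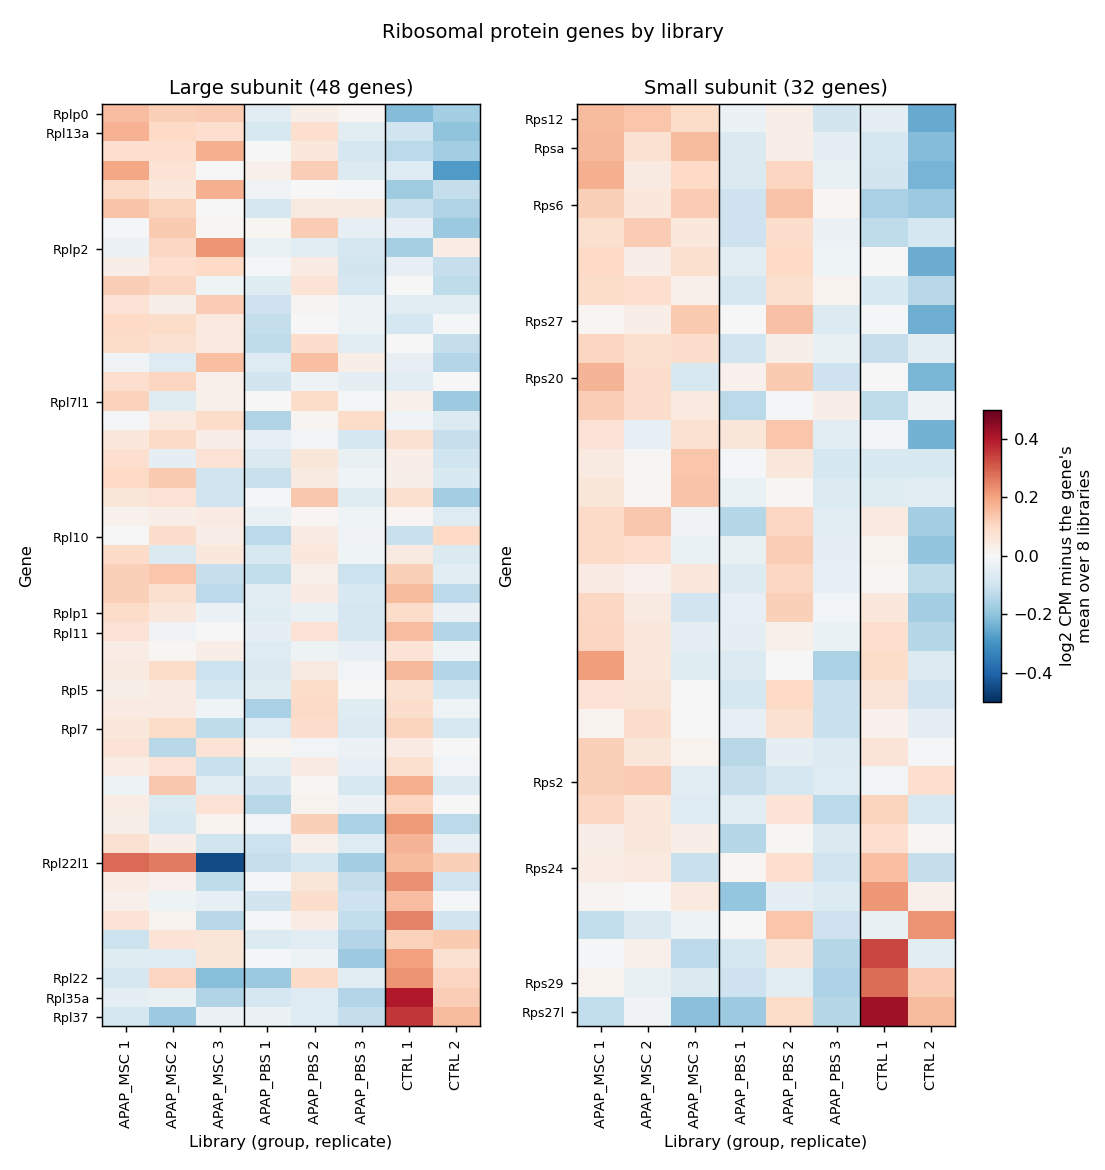
Level of each of the 80 members in each library, as log2 CPM (TMM scaling) minus the gene's mean over the 8 libraries. Rows are genes, with names for a selection described in the text, ordered within each subunit by the fold change of APAP_MSC against CTRL. Columns run from APAP_MSC through APAP_PBS to CTRL. The bottom rows, Rpl37, Rpl35a, Rps29 and Rps27l, are highest in CTRL replicate 1, while top rows such as Rplp0 and Rpsa are lowest in CTRL.

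Of the proteins of the ribosomal stalk, which recruits the elongation factors, Rplp0 had the highest fold change of all members in APAP_MSC against CTRL. Rplp0, the base of the stalk, was at 432, 422 and 424 CPM in APAP_MSC, at 374, 396 and 390.4 CPM in APAP_PBS, and at 334 and 345 CPM in CTRL. The 3 groups did not overlap. Its log2 fold change was 0.33 ± 0.11 in APAP_MSC against CTRL (SE, edgeR adjusted p = 0.0994), 0.19 ± 0.11 in APAP_PBS against CTRL (adjusted p = 0.293) and 0.14 ± 0.09 in APAP_MSC against APAP_PBS (adjusted p = 0.819). DESeq2 gave 0.31 with an adjusted p of 0.0140 for APAP_MSC against CTRL, and over all alternatives that adjusted p ran from 0.0140 to 0.324. Rplp1 and Rplp2, which bind Rplp0 as dimers, had log2 fold changes of 0.01 ± 0.11 and 0.16 ± 0.11 in APAP_MSC against CTRL. Rplp1 was at 206, 201 and 189 CPM in APAP_MSC, at 185, 188 and 182 CPM in APAP_PBS, and at 206 and 189 CPM in CTRL. Rplp2 was at 64.0, 70.3 and 76.2 CPM in APAP_MSC, at 63.9, 63.1 and 61.7 CPM in APAP_PBS, and at 58.2 and 67.1 CPM in CTRL. For both, APAP_MSC lay above APAP_PBS in every library and overlapped CTRL.

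Rpsa, the small-subunit protein also known as the laminin receptor, resembled Rplp0. It was at 503, 474 and 502 CPM in APAP_MSC, at 428, 461 and 435 CPM in APAP_PBS, and at 424 and 387 CPM in CTRL, with no overlap between the groups. Its log2 fold change was 0.28 ± 0.11 in APAP_MSC against CTRL (SE, edgeR adjusted p = 0.174). Rps6, the substrate of the S6 kinases downstream of mTORC1, was at 367, 351 and 369 CPM in APAP_MSC, at 315, 373 and 341 CPM in APAP_PBS, and at 302 and 298 CPM in CTRL. The APAP groups overlapped and lay above CTRL, and the log2 fold change of APAP_MSC against CTRL was 0.27 ± 0.12 (adjusted p = 0.199). Rpl5 and Rpl11, which as free proteins bind MDM2 and so link ribosome assembly to p53, overlapped between all groups. Their log2 fold changes in APAP_PBS against CTRL were 0.02 ± 0.11 and -0.03 ± 0.12, with 95% intervals of -0.23 to 0.26 and -0.29 to 0.23.

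**Figure D3:**
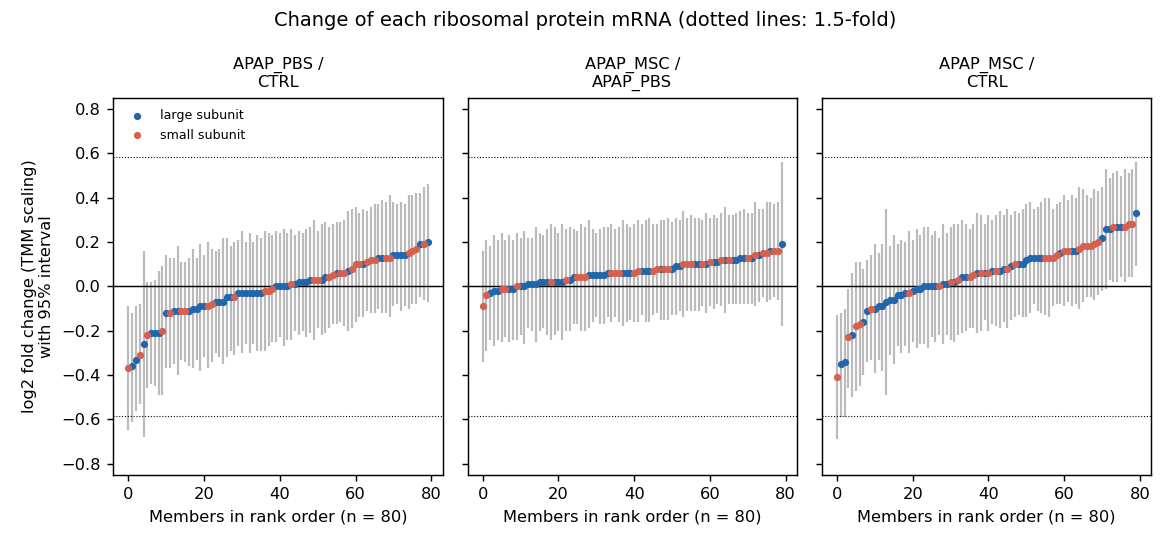
Log2 fold change (TMM scaling) of every member in each comparison, with its 95% interval as a grey bar. Members are in rank order (n = 80), blue for the large and red for the small subunit, and the dotted lines mark a 1.5-fold change; medians are -0.00 in APAP_PBS against CTRL, 0.06 in APAP_MSC against APAP_PBS and 0.06 in APAP_MSC against CTRL, and 77, 80 and 77 intervals lie inside the dotted lines.

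The intervals limit how large a change could have gone unseen on this scale. In APAP_PBS against CTRL 77 of 80 intervals lay inside a 1.5-fold change, the exceptions being Rpl22l1, Rpl35a and Rps27l. In APAP_MSC against CTRL it was also 77, the exceptions being Rpl35a, Rpl37 and Rps27l. Members varied less between libraries of a group than most genes did: the median coefficient of variation was 4.79% in APAP_MSC, 5.59% in APAP_PBS and 6.94% in CTRL, against 14.6%, 9.88% and 11.2% over all tested genes. Against genes of the same expression range, at 10.7%, 6.27% and 7.73%, the gap was narrower.

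Among paralog pairs, Rps27l and Rps27 stood in another ratio in the APAP libraries than in CTRL. Rps27l encodes a near copy of the small-subunit protein Rps27 and is known as a p53 target. It was at 78.7, 84.6 and 74.2 CPM in APAP_MSC, at 75.6, 91.2 and 77.6 CPM in APAP_PBS, and at 115 and 95.6 CPM in CTRL. Rps27 was at 65.1, 66.2 and 70.9 CPM in APAP_MSC, at 64.8, 71.6 and 61.7 CPM in APAP_PBS, and at 64.2 and 54.7 CPM in CTRL. Rps27l was lower in every APAP library than in either CTRL library, while Rps27 overlapped between APAP_PBS and CTRL and was higher in every APAP_MSC library than in CTRL. Per length, in FPKM, Rps27l stood at 83.3%, 88.0% and 72.1% of Rps27 in APAP_MSC, at 80.4%, 87.5% and 86.7% in APAP_PBS, and at 123% and 120.1% in CTRL.

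This ratio needs no scaling between libraries, and it separated the APAP libraries from CTRL completely. Separation is common with so few libraries: in CPM 25.0% of all tested genes lay above and 22.6% below in APAP_PBS against CTRL, and 17.8% and 17.7% in APAP_MSC against CTRL. Counts of near copies are estimates, and reads may have been shared out between them. The ratio averaged 81.1 ± 8.17% in APAP_MSC, 84.9 ± 3.88% in APAP_PBS (SD, n = 3 each) and 122 ± 2.20% in CTRL (SD, n = 2). The exact permutation test gave a 2-sided p of 0.10 for either APAP group against CTRL, the smallest that 3 against 2 libraries allow, and 0.700 for APAP_MSC against APAP_PBS; adjusted over the 9 ratio tests of 3 pairs these were 0.450 and 0.900. As single genes neither passed: the log2 fold change of Rps27l was -0.41 ± 0.13 in APAP_MSC against CTRL (SE, edgeR adjusted p = 0.0813), and that of Rps27 was 0.18 ± 0.12 (adjusted p = 0.401).

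**Figure D4:**
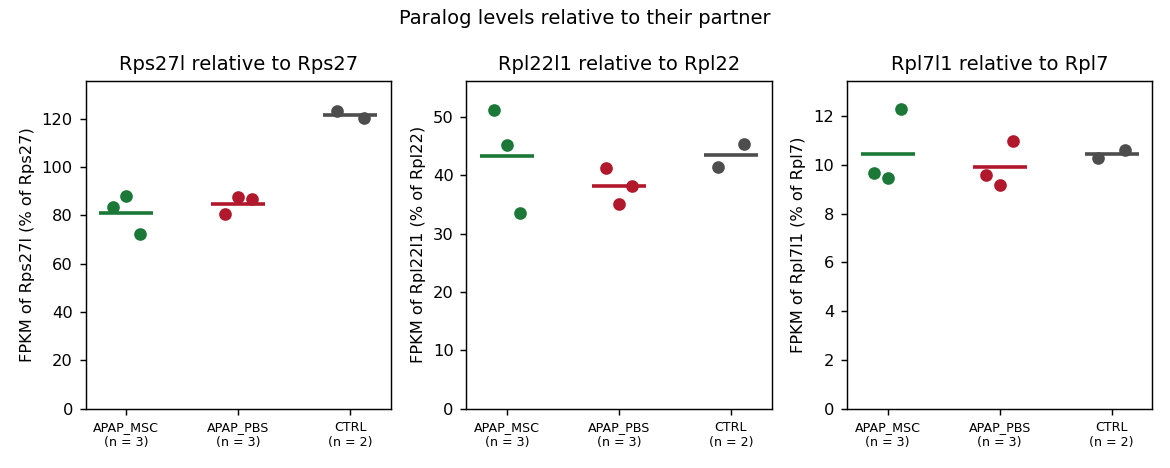
FPKM of each paralog as a percentage of its partner's, by group from APAP_MSC through APAP_PBS to CTRL, with points for libraries and lines for group means. Rps27l relative to Rps27 is 72.1% to 88.0% in the APAP libraries and 120.1% and 123% in CTRL, whereas APAP_MSC overlaps both other groups for Rpl22l1 relative to Rpl22 and all groups overlap for Rpl7l1 relative to Rpl7.

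The other detected pairs did not separate both APAP groups from CTRL. Rpl22l1, which in mice is raised when Rpl22 is lost, stood at 51.1%, 45.2% and 33.5% of Rpl22 in APAP_MSC, at 41.2%, 35.1% and 38.1% in APAP_PBS, and at 41.4% and 45.4% in CTRL. APAP_PBS lay below CTRL, by a small gap (exact permutation test, 2-sided p = 0.200, adjusted over the 9 tests 0.60), and APAP_MSC overlapped both, with replicate 3 the lowest and replicate 1 the highest of all libraries. Rpl7l1, a divergent relative of Rpl7, stood at 10.5 ± 1.61%, 9.91 ± 0.933% and 10.4 ± 0.167% of Rpl7 in APAP_MSC, APAP_PBS and CTRL (SD, n = 3, 3 and 2). The striated muscle form Rpl3l had 2 counts in all, where Rpl3 had a mean of 6769, and Rpl39l and Rpl10l, forms known from testis, had 3 and 0 counts.

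Levels per length differed widely between members. By FPKM, averaged over all libraries, the highest were Rpl13a (567), Rps2 (547) and Rps24 (498), and the lowest were Rps20 (25.8), Rpl7l1 (32.7) and Rpl22l1 (51.1). FPKM depends on the gene length the authors used, and count and FPKM together imply that length. It was 3706 nt for Rps20, 10.4 times its longest annotated coding sequence of 357 nt, where Rpl13a had 606 nt for 609 nt. The low FPKM of Rps20 thus goes with a long assigned length. Its CPM was 107, 101 and 89.9 in APAP_MSC, 96.5, 104 and 88.4 in APAP_PBS, and 94.8 and 81.1 in CTRL. Rpl10 is uncertain for another reason, since the pseudogene row Rpl10-ps3 held a mean of 5357 counts beside 5257 for Rpl10 itself.

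Short members lay lower against CTRL than long ones. Over the 80 members, log2 fold change and log2 coding length had a Pearson's r of 0.41 in APAP_PBS against CTRL, 0.26 in APAP_MSC against APAP_PBS and 0.45 in APAP_MSC against CTRL (Spearman's rho 0.42, 0.29 and 0.45). These are correlations across genes of the same libraries, given as a description, and the comparisons share libraries. The 26 members with a coding sequence under 400 nt had median log2 fold changes of -0.09, 0.05 and -0.04 in these comparisons, and the 54 longer members 0.02, 0.08 and 0.08. Outside the family, 585 genes under 400 nt had medians of -0.11, 0.03 and -0.10, and 12027 longer genes 0.04, -0.01 and 0.01. There too the short genes lay lower against CTRL, but not in APAP_MSC against APAP_PBS. Rpl35a (330 nt), Rpl37 (291 nt), Rps29 (168 nt) and Rps27l (315 nt) are all among the short members, and Rplp0 (951 nt) and Rpsa (885 nt) among the long. Whether transcript length has a part in their values was not tested.

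**Figure D5:**
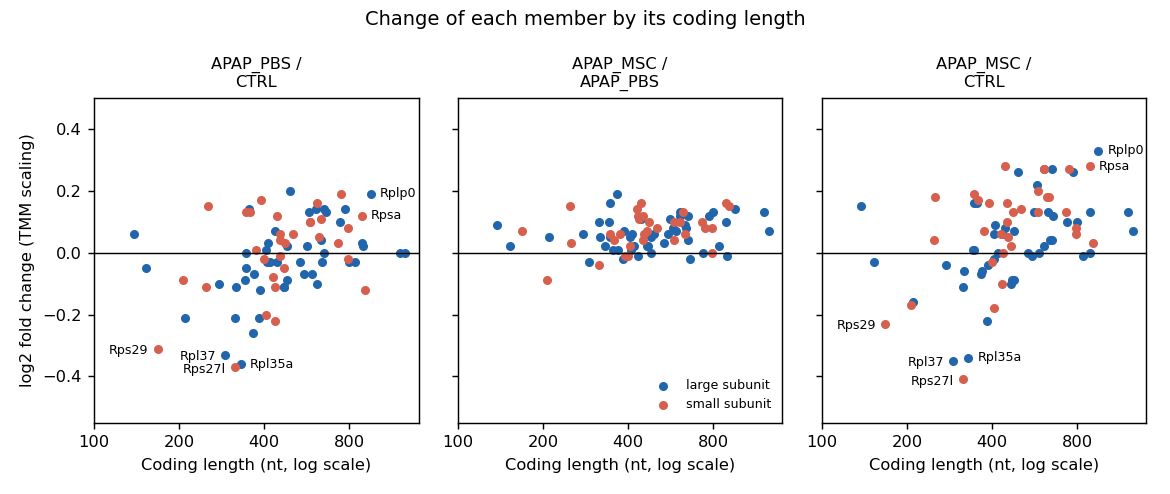
Log2 fold change (TMM scaling) of each member against the length of its longest annotated coding sequence (nt, log axis) in each comparison, blue for the large and red for the small subunit. Against CTRL the short members Rps29, Rpl37, Rpl35a and Rps27l lie lowest and the long Rplp0 and Rpsa near the top (Pearson's r 0.41 and 0.45), while values of APAP_MSC against APAP_PBS lie between -0.09 and 0.19 (r 0.26).

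The rest of the translation machinery was followed through 8 lists with 92 tested genes, of which 2 passed in APAP_PBS against CTRL, 0 in APAP_MSC against APAP_PBS and 1 in APAP_MSC against CTRL, where 10.3%, 0.00786% and 5.84% of all tested genes did. Etf1, the release factor that reads stop codons, rose in APAP_PBS to 142, 137 and 135 CPM, against 96.4 and 97.9 CPM in CTRL (log2 fold change 0.51 ± 0.12, SE, edgeR adjusted p = 0.0266). Sesn1, an inhibitor of mTORC1 and a known p53 target, fell in APAP_PBS to 8.76, 8.94 and 8.25 CPM, against 14.0 CPM in each CTRL library (-0.69 ± 0.19, adjusted p = 0.0395). Eef1g, a subunit of the factor that reloads Eef1a1, rose in APAP_MSC to 207, 186 and 209 CPM, against 139 and 155 CPM in CTRL (0.45 ± 0.11, adjusted p = 0.0384). In each case the libraries of the groups did not overlap.

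The other genes of the lists gave no calls. In APAP_PBS against CTRL 1 of 10 elongation and termination factors passed, higher, with a median of -0.08. In the same comparison 0 of 14 eIF3 subunits, 0 of 19 other initiation factors, 0 of 8 further TOP mRNAs, 0 of 12 ribosomal protein chaperones and late maturation factors and 0 of 7 transcription factors of these promoters passed in either direction, with medians of -0.05, 0.06, -0.08, 0.06 and -0.04. In the same order, their values ran from -0.20 to 0.21, -0.55 to 0.27, -0.33 to 0.48, -0.14 to 0.66 and -0.19 to 1.30. Of 19 genes of mTORC1 and its control of TOP mRNAs 1 passed, lower, with a median of 0.06. Fau and Rack1, ribosomal proteins whose symbols the naming rule misses, had log2 fold changes of -0.08 and 0.10 there, and of 0.17 and 0.14 in APAP_MSC against APAP_PBS. Eif1, which guides start codon choice, was at 139, 131 and 132 CPM in APAP_PBS, against 157 and 183 CPM in CTRL, and missed the threshold (-0.35 ± 0.11, adjusted p = 0.0693). Gabpa, whose motif is frequent in the promoters above, was at 38.3, 41.0 and 27.9 CPM in APAP_MSC, against 51.1 and 50.3 CPM in CTRL (-0.51 ± 0.15, adjusted p = 0.0734).

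Markers of other liver cell types and of hepatocytes are given beside these results. The summed level of 10 monocyte and macrophage markers was 124 to 175 CPM in APAP_MSC, 156 to 266 CPM in APAP_PBS and 120.2 to 182 CPM in CTRL. Of these markers, Ccr2 and Cd68 were called higher in APAP_PBS against CTRL (log2 fold changes 1.91 ± 0.42 and 1.61 ± 0.33, SE, edgeR adjusted p = 0.0165 and 0.0176), and 9 of the 10 were above 0. The summed level of 10 neutrophil markers was 3.62 to 5.71, 5.44 to 24.8 and 2.26 to 3.13 CPM in APAP_MSC, APAP_PBS and CTRL. Mpo and Camp were at 0 in all APAP_MSC libraries, Ly6g in all APAP_PBS libraries, and Ly6g, Mpo, Elane and Camp in both CTRL libraries. The 5 cholangiocyte markers summed to 52.0 to 58.2 CPM in APAP_MSC, 73.6 to 93.2 CPM in APAP_PBS and 50.8 to 84.2 CPM in CTRL, and the 7 stellate cell markers to 110.4 to 116, 118 to 128 and 110.5 to 113 CPM. Both sums were lower in every APAP_MSC library than in every APAP_PBS library, where 7.04% of all tested genes lay below as single genes. The sums of the other marker lists overlapped between these groups. The 7 endothelial markers summed to 228 to 279.9, 207 to 278 and 176 to 219 CPM, the 10 T and NK cell markers to 0.583 to 3.44, 1.57 to 2.46 and 2.06 to 4.23 CPM, and the 7 B and plasma cell markers to 1.81 to 2.37, 1.24 to 3.62 and 3.27 to 3.34 CPM. The 9 hepatocyte markers in the table summed to 95306 to 105259, 90256 to 104552 and 105705 to 122617 CPM, most of it albumin. In APAP_PBS against CTRL 2 of 6 tested neutrophil, 2 of 7 stellate cell and 1 of 5 cholangiocyte markers were also called higher. Of the hepatocyte markers 1 was called higher and 2 lower, and of the endothelial, T and NK, and B and plasma cell markers 0 were called. Over all tested genes 10.3% were called in that comparison. The part of cell composition in the members' values was not tested.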

How the data were processed

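Liver mRNA was selected on oligo(dT) beads, per the labels' protocols, in 8 libraries grouped by their titles (APAP_MSC 3, APAP_PBS 3, CTRL 2). The authors deposited estimated counts and FPKM values for 22183 Ensembl genes, per the file headers. Per the submitters' processing notes, fastp 0.18.0 was used on the reads. The aligner, quantifier, build, annotation and strand setting were not given in the sources used here, and reads of overlapping antisense genes cannot be told apart. Of the 80 members' estimated counts, 11.2% to 17.5% per library were not whole, so some reads had been shared out between similar genes. Symbols came from GENCODE M21 (GRCm38), which matched 22128 IDs, and coding length is the longest annotated coding sequence there, without the stop codon. No column of samples went unused.

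Counts were rounded, filtered with filterByExpr (12722 genes), scaled by TMM and fitted with edgeR 4.0.16 (R 4.3.3; glmQLFit, robust) with 1 coefficient per group over all 8 libraries. Calls were made at a Benjamini-Hochberg adjusted p of 0.05 over all tested genes. The standard error is the log2 fold change divided by the root of F. Alternatives were DESeq2 1.42.0, limma 3.58.1 on log2(FPKM + 1) and log2(FPKM + 0.1), other scalings and filters, and each library left out. The steps were tested on simulated data. Paralog ratios were compared with exact permutation tests. Intervals and p-values cover the spread between libraries only.

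The members and lists were chosen with earlier results of these data known. Named with values were the 3 members with the smallest p in each comparison, the 3 highest and lowest by FPKM, the paralog pairs, the stalk genes and Rpsa, and list genes with the smallest adjusted p. The palindrome was picked from these promoters and its share is a description. Rps6, Rpl5 and Rpl11 were added for their known roles, and Rps29 and Rps27l for their p, after values were seen.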

Additional observations from a re-analysis of the deposited data

How the results depend on the processing

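In edgeR the count of called members was 0 in each direction and comparison under other size factors, other low-count filters, added pseudogene rows, other membership limits and each left-out library. The exceptions were these. Scaling by library size alone called 6 members higher in APAP_PBS against CTRL and 8 in APAP_MSC against CTRL, with medians of 0.24 and 0.25 on the log2 scale. Limma on log2(FPKM + 1) called 2 and 2 higher, with medians of 0.22 and 0.25, and on log2(FPKM + 0.1) the medians were again 0.22 and 0.25. These settings do without TMM factors, which were 0.959 to 1.05 in APAP_MSC, 1.03 to 1.07 in APAP_PBS and 0.854 to 0.937 in CTRL. DESeq2 called 2 members lower in APAP_PBS against CTRL, and 1 higher and 2 lower in APAP_MSC against CTRL; a fit of APAP_PBS and CTRL alone called 2 lower, and the cause was not tested. Scaling to the sum of the members, chosen after seeing the data, called 3 lower in APAP_MSC against CTRL (Rps27l, Rpl37 and Rpl35a, at -0.49, -0.43 and -0.42) with a median of -0.02. In APAP_MSC against APAP_PBS it left 34 of 80 members above 0, with a median of -0.01.

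With each library left out in turn, the median member ran from -0.04 to 0.07 in APAP_PBS against CTRL, from 0.04 to 0.10 in APAP_MSC against APAP_PBS and from 0.01 to 0.14 in APAP_MSC against CTRL, where the lowest and highest came from leaving out CTRL replicates 2 and 1. A lone CTRL library is then assumed to vary like the other groups. Same-numbered libraries of different groups deviated from their group means with correlations of -0.15 to 0.19. With so few libraries per group, and with the deviations of the 2 CTRL libraries mirror images of each other, these values cannot tell whether same-numbered libraries were paired. With the replicate block 0 members were called in every comparison, and the medians were 0.01, 0.06 and 0.08 in APAP_PBS against CTRL, APAP_MSC against APAP_PBS and APAP_MSC against CTRL. Of 520 values of 26 named members under alternatives in each comparison, the sign differed from that reported in 45, 39 and 36, in the same order, in members that edgeR had not called. CTRL has 2 libraries, which limits every comparison with it.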
